A study of Sus scrofa with 22 samples.

Results

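miR-199 and miR-214 are microRNAs of mesenchymal cells, and 4 names of them were found in small RNA libraries of pig subcutaneous fat. The names were taken from the deposited tables after removal of species prefixes, by the stems miR-199 and miR-214: miR-199ab-3p, miR-199b-5p, miR-214-3p and miR-214-5p. They were 4 of 250 miRNA names, and 259 of 8489 sequences carried 1 of them (139, 49, 69 and 2 in the order above). Rows named miR-199a-5p numbered 0, so the 5p strand of miR-199a is not described.

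A microRNA hairpin is cut into a duplex, and either strand, called 5p or 3p after the arm it comes from, can be loaded into Argonaute and pair with messenger RNAs through its seed. In mouse and human, miR-199a and miR-214 are made together from a long non-coding transcript, DNM3OS, that runs opposite to the dynamin gene DNM3 and is switched on in mesenchyme by the transcription factor TWIST1. The miR-199 hairpins share 1 mature 3p strand, so reads of miR-199ab-3p cannot be assigned to miR-199a or miR-199b. In human and mouse tissue these miRNAs are known from fibroblasts, smooth muscle and scarring, and they are used as markers of stromal cells. In the RefSeq annotation of the pig assembly Sscrofa11.1, which is not the assembly the submitters used, MIR214 and MIR199A-1 were direct neighbours within the span of DNM3, MIR199A-2 lay within DNM2 and MIR199B within DNM1.

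The most abundant sequence of each name is shown first, with the seed (bases 2 to 8 from the 5′ end) in capitals, because the seed sets which messages can pair. For both 3p strands the second most abundant sequence is shown as well, because it starts 1 base earlier and so has another seed.
miR-199ab-3p: aCAGUAGUcugcacauugguu
miR-199ab-3p, 1 base earlier: uACAGUAGucugcacauugguu
miR-199b-5p: cCCAGUGUuuagacuaucuguuc
miR-214-3p: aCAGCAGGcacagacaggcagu
miR-214-3p, 1 base earlier: uACAGCAGgcacagacaggcagu
miR-214-5p: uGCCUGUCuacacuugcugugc

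The seeds of miR-199ab-3p and miR-214-3p differed at 2 bases, U5C and U8G, numbering bases from 1 at the 5′ end and giving the base of miR-199ab-3p first. The number of other miRNA names whose most abundant sequence had 1 of these seeds, in either start, was 0. The other pairs of names differed at 4 to 7 of the 7 seed bases.

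Each library was made from the subcutaneous fat of a single pig, and the 22 pigs were females at 6 months of age. There were 5 Hampshire pigs with thick and 2 with thin fat, 4 Pietrain pigs with thick and 3 with thin fat, and 4 Large White pigs in each class. Library totals ran from 431542 to 3137757 reads. Of 5 listed adipocyte miRNAs all 5 had reads in every group, and their summed level was 229000 to 421300 CPM (counts scaled to library size) in Hampshire, 136200 to 213000 CPM in Pietrain and 131100 to 236900 CPM in Large White.

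These limits hold for all results. Each breed was deposited as its own table, so breed and any batch that goes with it cannot be told apart. The libraries are of whole tissue, so fewer cells of a type and less RNA per cell cannot be told apart. The p-values rest on the spread among libraries of different pigs. The authors' deposited Large White comparison matched the counts with a Pearson r over sequences of 0.608 by the labels. With thick fat replicate 1 and thin fat replicate 1 exchanged the match was better (r 0.979). Large White results on fat class follow the labels. Fold changes of miR-214, the fit on libraries with reads and the strand ratios are also given with the exchange.

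Where they had reads, the 2 strands of miR-199 were among the abundant miRNAs of this tissue. The median of miR-199ab-3p was 17750 CPM over 15 libraries with reads (6727 to 38370), rank 16 of 250 names. miR-199b-5p had 3687 CPM (1829 to 6041), rank 33. miR-214-3p, the main strand of its hairpin, had 1017 CPM (756 to 1502), rank 49, and miR-214-5p 51.9 CPM (22.2 to 81.1), rank 132. CPM are counts scaled to library sizes with edgeR's trimmed mean of M values (TMM), and adapter ligation can favour some small RNAs over others, so these ranks are of reads.

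**Figure D1:**
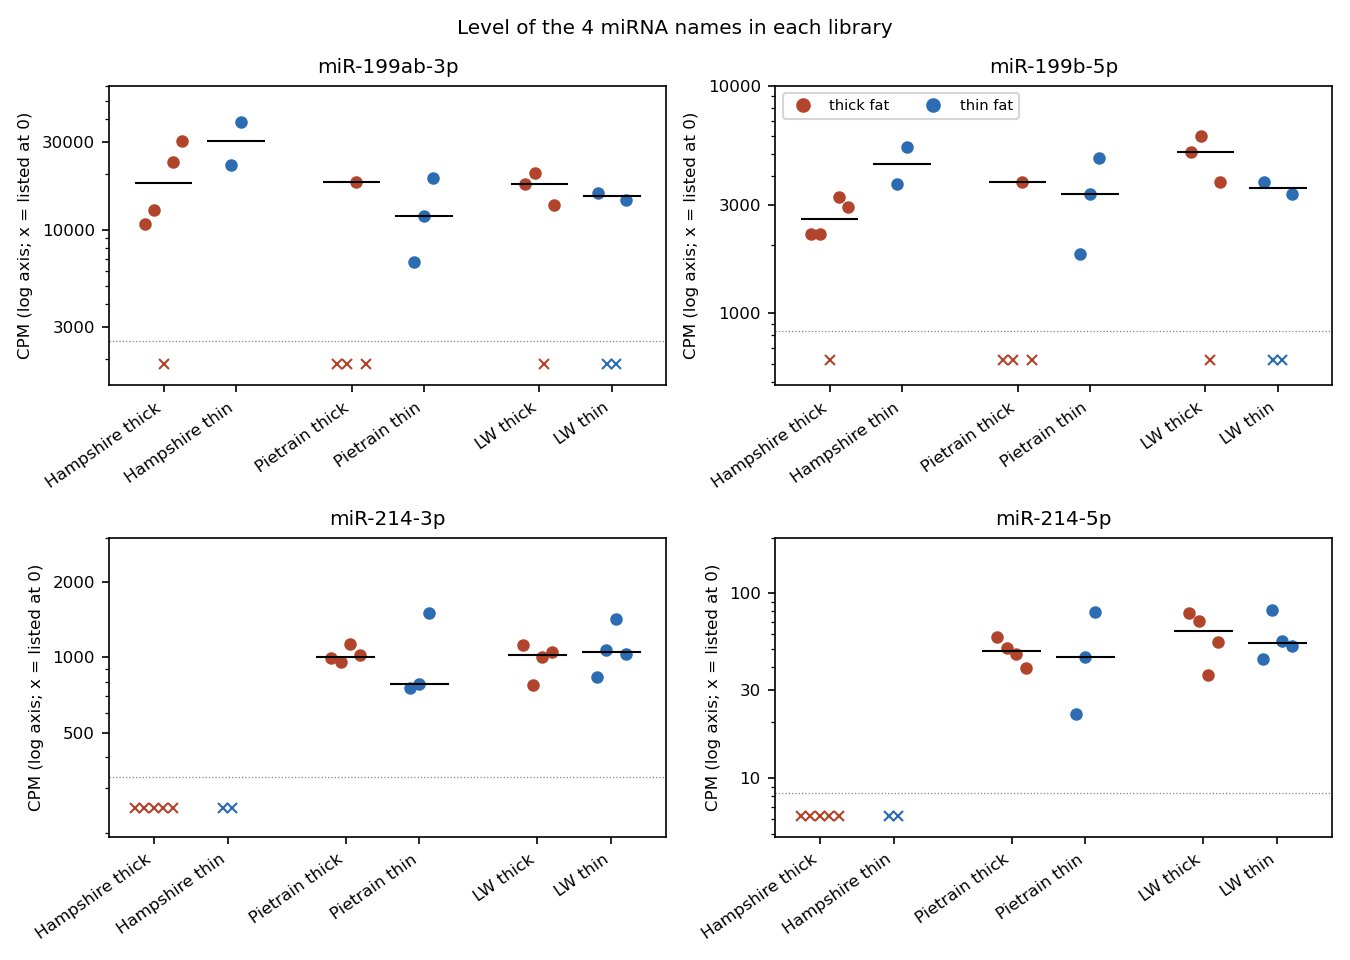
Level of each name in each library in CPM (log axis), by breed and fat class (LW, Large White), with crosses below the dotted line for libraries at 0 (a deposited 0 or an absent row) and a bar at the median of libraries with reads. miR-199 was at 0 in 7 libraries of all breeds, and miR-214 was at 0 in all 7 Hampshire libraries and above 0 in the other 15.

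The libraries at 0 differed between the 2 hairpin families and were shared between the strands of each. miR-199ab-3p and miR-199b-5p were both at 0 in the same 7 libraries: Hampshire thick fat replicate 3, Pietrain thick fat replicates 1, 2 and 4, Large White thick fat replicate 3, and Large White thin fat replicates 2 and 3. That was 5 of 13 thick-fat and 2 of 9 thin-fat libraries. Both strands of miR-214 were at 0 in all 7 Hampshire libraries and above 0 in all 15 others. Only Hampshire thick fat replicate 3 was at 0 for all 4 names.

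The libraries at 0 for miR-199 were not the shallow ones. The 7 libraries at 0 for miR-199 had totals of 950751 to 3137757 reads, and the 15 with reads 431542 to 2731336. At the median CPM of the libraries with reads, 16866 to 55674 reads of miR-199ab-3p and 3504 to 11566 of miR-199b-5p would have stood in each library at 0. For miR-214-3p the same calculation gave 438 to 2353 reads per Hampshire library, and for miR-214-5p 22 to 120.

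In the libraries at 0, the sequences were not listed under another name. Bases 2 to 19 of the most abundant sequence of each name were searched in all rows, and they were found in 15 libraries for each of the 4 names, the libraries in which the name itself had reads. Reads of that stretch in libraries at 0 numbered 0, as did reads sharing any 12-base stretch with a member in those libraries. Of 70 sequences sharing a 12-base stretch with miR-214-3p, 1 stood under another name. The smallest count above 0 in any library was 6, so a sequence at 0 may have had as many as 5 reads. For that reason no fold is given against a group at 0.

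Other miRNAs had libraries at 0 too. Of 114 names with a median of at least 100 CPM where they had reads, 23 (20.2%) were at 0 in at least 1 library. Both counts include the members miR-199ab-3p, miR-199b-5p and miR-214-3p. The limit of 100 CPM is far below the medians of miR-199ab-3p (17750 CPM) and miR-199b-5p (3687 CPM). The median of miR-145-5p, at 0 in 4 libraries, was 4540 CPM. The pattern of miR-214, at 0 in every Hampshire library and above 0 in every other, was held by 2 of 250 names (0.8%), which were miR-214-3p and miR-214-5p. Of 13 hairpins with both strands at a median of at least 50 CPM, 5 had a strand at 0 in some library, and in 3 of these (miR-145, miR-199 and miR-214) the strands were at 0 in exactly the same libraries. In miR-142, a leukocyte miRNA, the 5p strand was at 0 in 15 libraries and the 3p strand in 18, which included those 15. In miR-193a the 3p strand was at 0 in 5 libraries and the 5p strand in 0. The cause of the zeros was not tested.

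**Figure D2:**
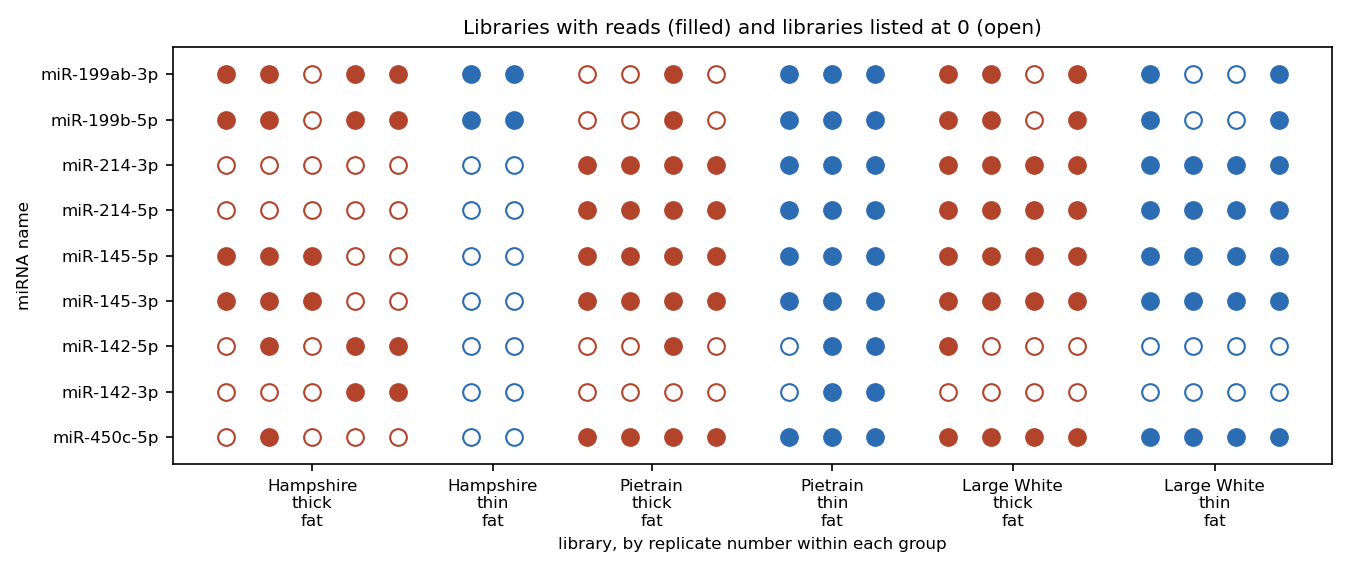
Libraries with reads (filled) and libraries at 0, by a deposited 0 or an absent row (open), for the 4 names, for both strands of miR-145 and miR-142 and for miR-450c-5p, in 22 libraries ordered by breed, fat class and replicate (red, thick fat; blue, thin fat). The strands of miR-199, miR-214 and miR-145 share their open circles, and miR-450c-5p is open in 6 of the 7 Hampshire libraries where miR-214 is.

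By the libraries at 0, and among 14 other names with at least 3 libraries at 0 and a median of at least 100 CPM, the one most like miR-214-3p was miR-450c-5p, with a Jaccard index (shared libraries at 0 over libraries at 0 in either) of 0.857. miR-145-3p and miR-145-5p, strands of a smooth muscle miRNA, followed with 0.571 each, then miR-378/378b-3p (0.429) and miR-708-5p (0.412). Of these, miR-708-5p had reads in only 5 libraries. miR-450c-5p had 392 CPM in Hampshire thick fat replicate 2, was at 0 in the other 6 Hampshire libraries, and had 108 to 430 CPM in the other breeds. miR-145-5p had 2727 to 2962 CPM in Hampshire thick fat replicates 1, 2 and 3, was at 0 in the other 4 Hampshire libraries, and had 3575 to 10100 CPM elsewhere. The zeros of miR-199ab-3p were less like those of any other name outside miR-199: the highest indices were 0.467 for miR-142-5p, 0.368 for miR-200b and miR-29c, and 0.333 for miR-10386 and miR-181a-3p. In this order these names had reads in only 7, 3, 3, 1 and 1 libraries. Their many zeros took in all 7 of miR-199ab-3p, so these indices show little likeness of pattern.

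The first comparison asked whether the level of these miRNAs differs with the thickness of the fat. It was tested with edgeR's quasi-likelihood test on all libraries, zeros included, at an adjusted p under 0.05 (Benjamini-Hochberg). In Pietrain, 0 of 4 members passed, against 0.0% of 161 names tested. In Large White 0 of 4 passed, against 0.0% of 170, and in Hampshire 0 of the 2 miR-199 names tested, against 0.0% of 172. Over all breeds 0 of 4 passed, against 0.0% of 206. At an unadjusted p under 0.05 there were 4, 2, 5 and 5 names in these fits, none of them a member. DESeq2 called 1, 0, 3 and 2 names and limma-voom 0 in each, and no member was among them.

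miR-214-3p could be compared in full, because all Pietrain and Large White libraries had reads. In Pietrain it had 993, 960, 1127 and 1017 CPM in thick fat, against 756, 784 and 1502 CPM in thin fat. In Large White it had 1123, 775, 1000 and 1048 CPM in thick fat, against 837, 1070, 1417 and 1028 CPM in thin fat. The classes overlapped in both breeds. The thick minus thin log2 fold change was -0.01 ± 0.30 (SE; 95% interval -0.72 to 0.70; edgeR adjusted p = 0.993) in Pietrain and -0.14 ± 0.20 (-0.60 to 0.32; edgeR adjusted p = 0.958) in Large White. Exchange of the 2 Large White libraries gave -0.37 (edgeR adjusted p = 0.998).

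miR-214-5p, the minor strand, stood on few reads. It had 58.2, 50.4, 47.0 and 39.5 CPM in Pietrain thick fat, against 22.2, 45.3 and 79.6 CPM in Pietrain thin fat. In Large White it had 78.0, 70.5, 36.2 and 54.6 CPM in thick fat, against 44.2, 81.1, 55.3 and 51.9 CPM in thin fat. The counts behind these values were 36 to 173 reads, and the classes overlapped in both breeds. Its log2 fold change was -0.03 ± 0.46 in Pietrain (edgeR adjusted p = 0.993) and 0.05 ± 0.32 in Large White (edgeR adjusted p = 0.958), the second -0.39 after the exchange (edgeR adjusted p = 0.998).

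For miR-199 the comparison turned on the zeros. miR-199ab-3p had 18100 CPM in 1 Pietrain thick-fat library and was at 0 in the other 3, against 6727, 11880 and 19030 CPM in thin fat. In Large White it had 17750, 20340 and 13580 CPM in thick fat with 1 library at 0, against 15780 and 14560 CPM in thin fat with 2 at 0. In Hampshire it had 10800, 12890, 23180 and 30180 CPM in thick fat with 1 library at 0, against 22500 and 38370 CPM in thin fat. The classes overlapped in every breed.

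The zeros made the fitted differences of miR-199 too wide to read. In Pietrain the log2 fold change of miR-199ab-3p was -1.52 ± 3.30 (95% interval -9.56 to 6.51; edgeR adjusted p = 0.993). It was called in Pietrain, together with miR-199b-5p, when thick fat replicate 3 was left out (edgeR adjusted p = 0.00431 for each), since the remaining 3 thick-fat libraries were all at 0. The one Pietrain thick-fat library with reads therefore decided this call, and no fold is given for it.

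miR-199b-5p followed the same libraries. It had 3770 CPM in Pietrain thick fat replicate 3, against 1829, 3343 and 4833 CPM in Pietrain thin fat. In Large White it had 5100, 6041 and 3761 CPM in thick fat, against 3786 and 3351 CPM in thin fat. In Hampshire it had 2233, 2225, 3233 and 2948 CPM in thick fat, against 3687 and 5412 CPM in thin fat. Here the libraries with reads did not overlap, but they were only 4 thick-fat and 2 thin-fat libraries. The share of all names without overlap in the same split was not computed. Whether the separation is particular to miR-199b-5p was therefore not tested. The edgeR fold change in Hampshire, zero included, was -0.94 ± 1.89 (adjusted p = 0.961).

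A second fit used only the libraries in which a name had reads (limma on log2 CPM, with breed and fat class as terms and zeros as missing). Thick minus thin, miR-199ab-3p differed by -0.09 ± 0.30 (SE; 95% interval -0.72 to 0.55) and miR-199b-5p by -0.08 ± 0.25 (-0.61 to 0.45), each over 15 libraries. miR-214-3p differed by -0.03 ± 0.17 (-0.39 to 0.33) and miR-214-5p by 0.08 ± 0.26 (-0.46 to 0.63). The limma adjusted p was 0.968 to 0.987 for the 4 names, and 0 of 4 passed, against 0.0% of 207 names (3 names at an unadjusted p under 0.05, 0 of them members). All 4 intervals lay between -1 and 1 on the log2 scale. With the 2 Large White libraries exchanged the values were -0.14, -0.21, -0.14 and -0.13 (limma adjusted p = 0.937 for each).

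An interaction test asked if thick minus thin differed among the 3 breeds. The edgeR test called 0 of 4 members, against 0.0% of 206 names, with 11 names at an unadjusted p under 0.05 and 2 called by DESeq2. The unadjusted p of the members was 0.727 to 0.995.

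miR-214 was at 0 in Hampshire and had reads in the other breeds. Hampshire libraries were all at 0 for both strands. The authors' deposited Hampshire comparison held sequences of miR-199 but none of miR-214. These zeros may therefore be absent rows rather than deposited counts. miR-214-3p had 756 to 1502 CPM in the 7 Pietrain libraries (median 993) and 775 to 1417 CPM in the 8 Large White libraries (median 1038). The edgeR test called Hampshire lower than Large White for miR-214-3p (edgeR adjusted p = 3.38e-11) and miR-214-5p (edgeR adjusted p = 1.21e-07). It called Hampshire lower than Pietrain for both strands too (edgeR adjusted p = 3.51e-11 and 1.57e-07). Both names passed the filter on low counts through the other breeds, so the zeros fixed these calls, and the p-values add nothing beyond the zeros. Of all names, 8.25% were called lower in Hampshire in each comparison (17 of 206), and the miR-214 strands were 2 of 4 members. Called higher were 9.22% (19) against Large White and 10.7% (22) against Pietrain, and 0 of 4 members. The split of higher to lower calls depended on the scaling: against Large White it was 14 to 26 with the upper quartile, 13 to 32 with library totals and 27 to 17 with DESeq2's size factors, and against Pietrain 14 to 25, 15 to 26 and 23 to 17.

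Between Pietrain and Large White, miR-214 overlapped. The log2 difference in libraries with reads was -0.03 ± 0.17 for miR-214-3p (95% interval -0.39 to 0.32) and -0.31 ± 0.26 for miR-214-5p (-0.86 to 0.23). No member was called in this limma fit, against 0.51% of 196 names (1 name), nor by edgeR, against 0.0% of 206 (25 names at an unadjusted p under 0.05, 0 of them members). DESeq2 called 7 names there and limma-voom 0, and 0 members.

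In libraries with reads, the strands of miR-199 were placed differently in Hampshire. The median of miR-199ab-3p was 22840 CPM in 6 Hampshire libraries (10800 to 38370), 14990 CPM in 4 Pietrain libraries (6727 to 19030) and 15780 CPM in 5 Large White libraries (13580 to 20340). miR-199b-5p had 3091 CPM in Hampshire (2225 to 5412), 3557 CPM in Pietrain (1829 to 4833) and 3786 CPM in Large White (3351 to 6041). The 3p strand had its highest median and the 5p strand its lowest in Hampshire, with overlap in both.

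Neither strand alone passed. Hampshire minus Pietrain was 0.74 ± 0.37 for miR-199ab-3p (95% interval -0.05 to 1.53; limma adjusted p = 0.165) and -0.02 ± 0.31 for miR-199b-5p. Hampshire minus Large White was 0.37 ± 0.33 for miR-199ab-3p (limma adjusted p = 0.483) and -0.45 ± 0.28 for miR-199b-5p (limma adjusted p = 0.28). These fits called 23.6% of 191 names and 19.2% of 193 names, and 0 of the 2 miR-199 names in each. With zeros included, edgeR did not call miR-199 in Hampshire against either breed, except miR-199ab-3p against Pietrain without Pietrain thick fat replicate 3 (adjusted p = 0.0453).

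**Figure D3:**
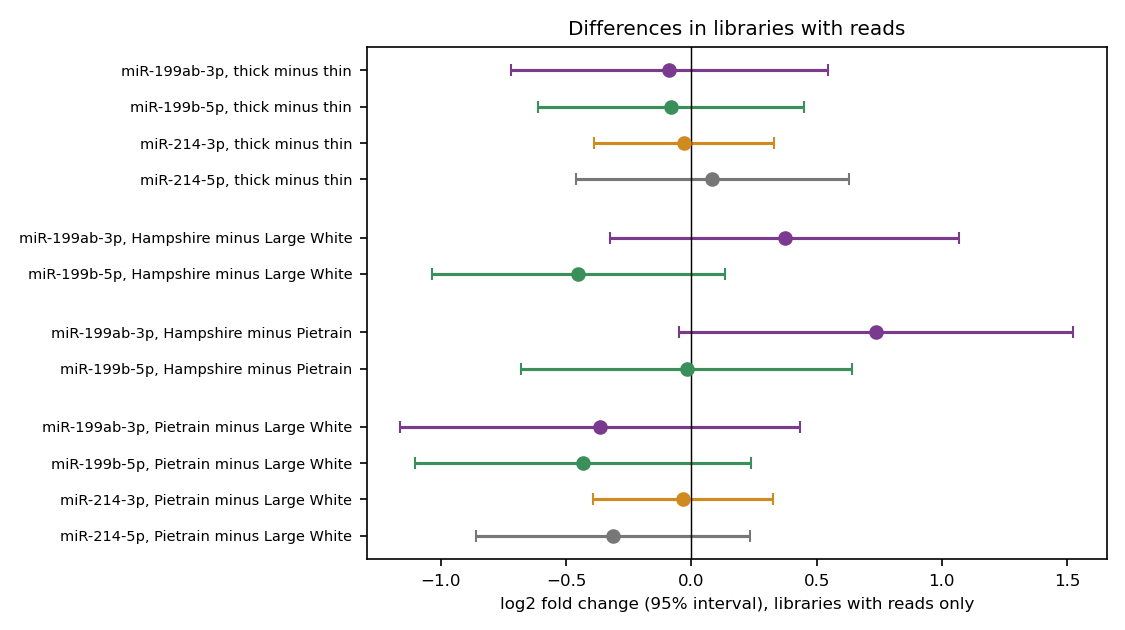
Log2 fold changes with 95% intervals from the limma fit on libraries with reads, for the 4 names in the comparison of fat classes and for those with reads in both breeds in the comparisons of breeds. Every interval crosses 0, and the difference of miR-199ab-3p between Hampshire and Pietrain, 0.74, is the farthest from it.

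The ratio of 5p to 3p reads within a library does not depend on scaling. For miR-199 it is not the ratio of a single hairpin: miR-199ab-3p holds reads of the miR-199a and miR-199b hairpins, and the 5p side holds miR-199b-5p only. Strand use and the mix of miR-199a and miR-199b therefore cannot be told apart in it. For miR-199 the log2 ratio of miR-199b-5p to miR-199ab-3p was -2.27, -2.53, -2.84 and -3.36 in Hampshire thick fat and -2.61 and -2.83 in Hampshire thin fat. In Pietrain it was -2.26 in thick fat and -1.88, -1.83 and -1.98 in thin fat. In Large White it was -1.80, -1.75 and -1.85 in thick fat and -2.06 and -2.12 in thin fat. All 6 Hampshire values lay below all 9 others, with the highest Hampshire value next to the Pietrain thick-fat value. The ratio was not computed for other hairpins with reads in Hampshire. Whether such a shift is particular to miR-199 was therefore not tested.

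The mean was -2.74 ± 0.37 in Hampshire (SD, n = 6), -1.99 ± 0.19 in Pietrain (n = 4) and -1.92 ± 0.16 in Large White (n = 5). As a plain ratio, the median was 0.152 reads of 5p per read of 3p in Hampshire, 0.263 in Pietrain and 0.277 in Large White. Hampshire minus Large White was -0.82 (two-sided exact permutation p = 0.00433, adjusted over 8 tests of such ratios 0.0346). Hampshire minus Pietrain was -0.75 (exact p = 0.00952, adjusted 0.0381). In thick fat alone, Hampshire minus Large White was -0.95 with 4 and 3 libraries and an exact p of 0.0571, the smallest this design allows (adjusted 0.114), so no call was possible there. The calls did not hold when the tests of all composition measures were adjusted as 1 family of 42 (adjusted exact p = 0.0606 and 0.0667).

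Pietrain and Large White did not differ detectably in this ratio (-0.07, exact p = 0.603). In Large White the ratio was -1.80 ± 0.05 in thick fat (SD, n = 3), against -2.09 ± 0.04 in thin fat (n = 2). These groups did not overlap, and the exact p of 0.2 is the smallest this design allows. With the 2 libraries exchanged the difference was 0.07, against 0.29 by the labels. In Hampshire it was -2.75 ± 0.46 in thick fat (n = 4), against -2.72 ± 0.15 in thin fat (n = 2; exact p = 1.0).

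miR-214 had the more unequal strands. Its median was 0.0525 reads of 5p per read of 3p in Pietrain (0.0294 to 0.0586) and in Large White (0.0362 to 0.0909). On the log2 scale that was -4.44 ± 0.37 in Pietrain (SD, n = 7) and -4.16 ± 0.46 in Large White (n = 8), which overlapped (exact permutation p = 0.224). Thick minus thin was 0.08 in Pietrain and 0.15 in Large White, with exact p of 0.8 and 0.743.

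**Figure D4:**
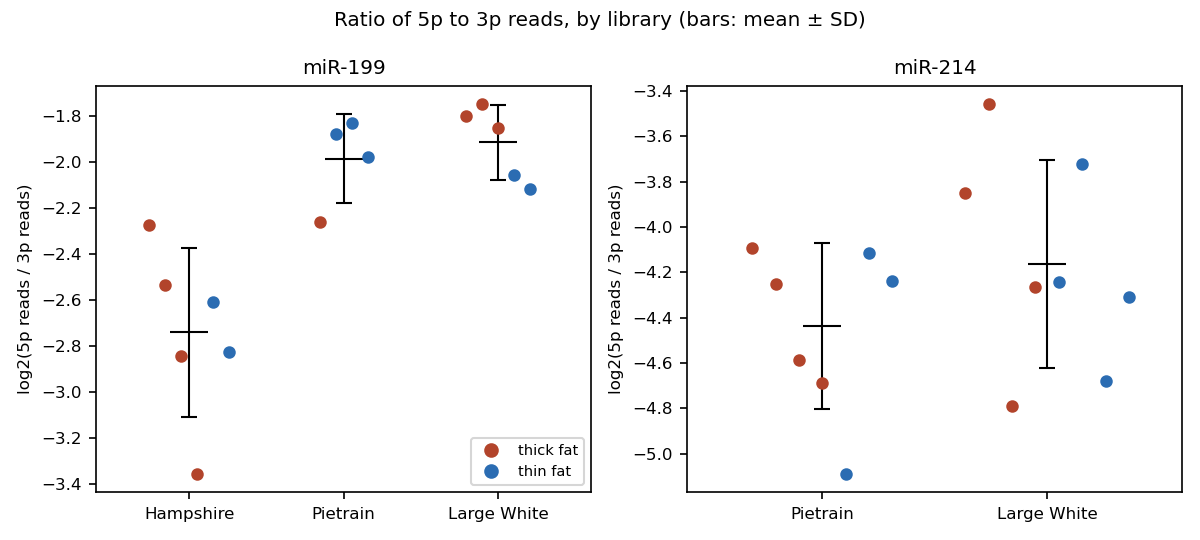
Log2 ratio of 5p to 3p reads in each library with reads of miR-199 (left) and miR-214 (right), by breed and fat class, with bars at the mean ± SD of a breed. The 6 Hampshire values of miR-199 run from -3.36 to -2.27, below the Pietrain and Large White values, and miR-214 has no Hampshire values.

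Marker lists gave the setting of the breed comparisons. Of 10 listed mesenchymal and fibroblast-rich miRNAs, 9 had reads and were tested, and 3 were called lower and 0 higher in Hampshire against each of the other breeds: miR-145-5p, miR-145-3p and miR-152. Among all names 8.25% were called lower in each comparison, and both strands of miR-145 were at 0 in 4 of the 7 Hampshire libraries. The median log2 fold change of the list was 0.05 against Large White, where all names had -0.02, and -0.15 against Pietrain, where all names had -0.04. miR-152 had log2 fold changes of -0.55 ± 0.18 against Large White (edgeR adjusted p = 0.0360) and -0.57 ± 0.18 against Pietrain (edgeR adjusted p = 0.0320). The neighbour of miR-145 on the same transcript, miR-143-3p, had 0.50 ± 0.31 and 0.25 ± 0.33 and was not called (edgeR adjusted p = 0.292 and 0.613). In fat comparisons 0 of 9 passed.

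Other lists held calls between breeds as well, and their part in the miR-199 and miR-214 results was not tested. Over all names, 17.5% were called against Large White and 18.9% against Pietrain, so 1 call in a list of 7 or 10 is below the share of all names. Against Large White, Hampshire was higher in 1 of 10 fibrosis-linked, 1 of 2 liver and 1 of 1 nerve miRNAs, and higher in 1 and lower in 1 of 5 adipocyte miRNAs. Against Pietrain it was higher in 1 of 7 leukocyte, 1 of 3 skeletal muscle and 1 of 1 nerve miRNAs, and higher in 1 and lower in 1 of 3 red blood cell and of 5 adipocyte miRNAs. Endothelial (2) and epithelial (3 tested) miRNAs had 0 calls in both. Skeletal muscle markers summed to 335 to 2379 CPM in Hampshire, 263 to 1808 CPM in Pietrain and 287 to 1138 CPM in Large White. The 2 liver markers summed to 22.3 to 27710 CPM in Hampshire, 0 to 7820 CPM in Pietrain and 0 to 3791 CPM in Large White. No list had a call in a fat comparison.

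Reads of each name came as many sequences. The most abundant sequence held 49.4% of miR-199ab-3p reads, 53.5% of miR-199b-5p, 22.9% of miR-214-3p and 98.7% of miR-214-5p, summed over libraries. The last share rests on 36 to 173 reads per library. The smallest count above 0 was 6, so rarer sequences of miR-214-5p may be missing. The sequences printed above as 1 base earlier were the second most abundant of their names, at 15.3% for miR-199ab-3p and 12.2% for miR-214-3p. Each of the 6 was present in all 15 libraries with reads of its name.

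The 5′ end, which sets the seed, varied on the 3p strands and hardly on miR-199b-5p. Of miR-199ab-3p reads, 74.0% began where the most abundant sequence does and 25.8% began 1 base earlier, so that the seed was ACAGUAG in place of CAGUAGU. Of miR-214-3p reads, 61.5% began with the most abundant sequence and 38.2% began 1 base earlier, with the seed ACAGCAG in place of CAGCAGG. Of miR-199b-5p reads, 99.5% began at 1 base, and all listed reads of miR-214-5p did. With 36 to 173 reads per library and no count above 0 under 6, miR-214-5p cannot show rare starts.

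The share of earlier starts was narrow across libraries. For miR-199ab-3p it was 21.5% to 25.7% in 6 Hampshire libraries, 25.3% to 30.6% in 4 Pietrain libraries and 24.6% to 26.9% in 5 Large White libraries. For miR-214-3p it was 37.1% to 42.7% in 7 Pietrain libraries and 35.5% to 39.1% in 8 Large White libraries. Hampshire minus Pietrain was -3.71 percentage points for miR-199ab-3p (exact permutation p = 0.0190, adjusted over 8 tests of starts 0.152), with overlap. The other 7 tests had exact p of 0.0635 to 0.933.

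Each name had a range of lengths, most of all miR-214-3p. miR-199ab-3p was 21 nt in 63.9% and 22 nt in 27.5% of reads, and miR-199b-5p 23 nt in 63.0% and 22 nt in 21.4%. miR-214-3p had 40.8% at 22 nt, 29.2% at 23 nt and 12.4% at 21 nt. The mean length of miR-199ab-3p was 21.26 ± 0.02 nt in Hampshire (SD, n = 6), 21.34 ± 0.02 nt in Pietrain (n = 4) and 21.33 ± 0.01 nt in Large White (n = 5).

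**Figure D5:**
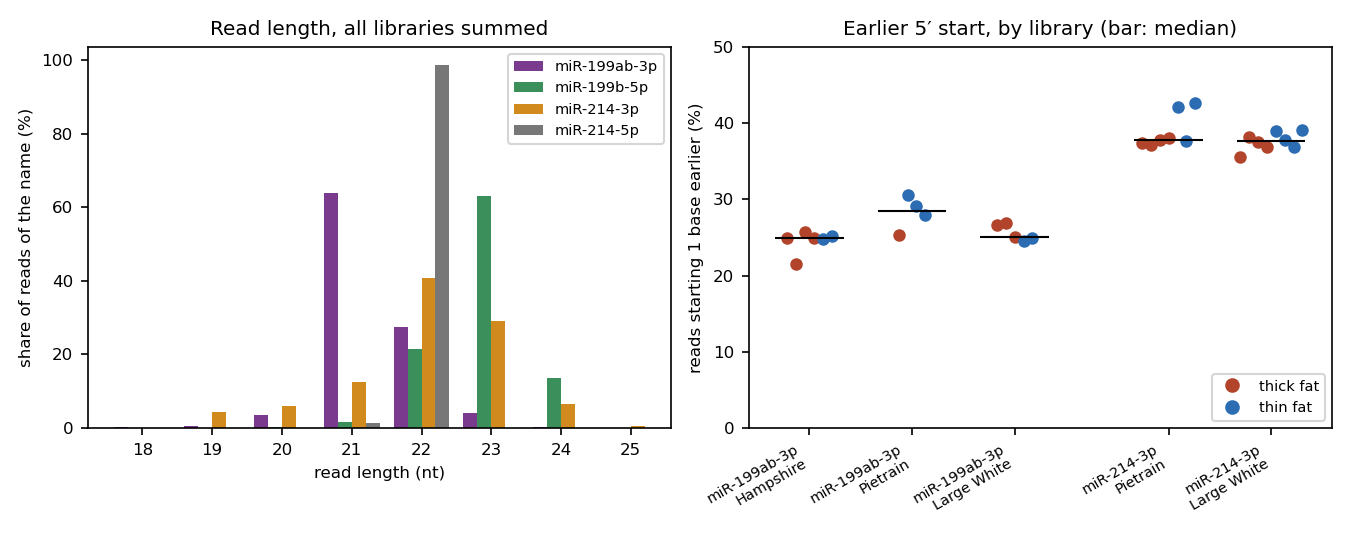
Share of reads of each name by read length, summed over libraries (left), and share of reads starting 1 base earlier than the most abundant sequence in each library (right; bar, median). miR-199ab-3p peaks at 21 nt and miR-199b-5p at 23 nt, and the earlier start makes up 21.5% to 30.6% of miR-199ab-3p and 35.5% to 42.7% of miR-214-3p.

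Hampshire libraries did not overlap the others in 2 of these measures, without passing the adjustment. The measures were not computed for other names, so whether the separation is particular to miR-199 was not tested. Nor was the part of library depth tested. The mean length of miR-199ab-3p was lower by 0.07 nt against Large White (-0.067, exact permutation p = 0.00433, adjusted over 26 tests 0.0563) and by 0.08 nt against Pietrain (-0.078, exact p = 0.00952, adjusted 0.0619). The most abundant sequence of miR-199b-5p held 43.6% to 50.4% of its reads in Hampshire, 54.3% to 55.9% in Pietrain and 52.5% to 60.9% in Large White. The mean was 48.2% ± 2.58 in Hampshire (SD, n = 6), 55.2% ± 0.81 in Pietrain (n = 4) and 54.8% ± 3.51 in Large White (n = 5), with adjusted exact p of 0.0619 against Pietrain and 0.0563 against Large White. None of the other 22 tests of length and of the most abundant sequence had an adjusted p under 0.648.

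Reads that differ from the most abundant sequence by a single base were mostly changed at the last base. Of 57 such sequences only 8 had the change there, but they held 84.0% of these reads in miR-199ab-3p, 83.2% in miR-199b-5p and 90.1% in miR-214-3p. In miR-199ab-3p the variant U21C had 14.9% as many reads as the most abundant sequence and U21A 4.21%. In miR-199b-5p C23U had 11.1% and C23A 3.70%. In miR-214-3p U22A had 15.4% and U22C 13.1%. Away from the last base, the variants with the highest such share in each name were G21A of miR-214-3p at 2.53%, U20C of miR-199ab-3p at 0.611% and U17C of miR-199b-5p at 0.513%. Within the seed there were 2 single-base variants of miR-199ab-3p with 472 reads, and 1 of miR-199b-5p with 55 reads. Deposited counts do not tell sequencing errors from edited or genomic bases. Nor do they tell a changed last base from a base added to a read 1 base shorter.

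Single sequences were also compared between fat classes with edgeR. In Pietrain, 1 of 13 tested miR-199b-5p sequences was lower in thick fat (edgeR adjusted p = 0.0480), against 2.12% of 3067 sequences called, and 0 of 44 miR-199ab-3p, 0 of 27 miR-214-3p and 0 of 1 miR-214-5p sequences were called. In Large White 0 of 99 and in Hampshire 0 of 77 member sequences were called, against 0.0% of 3081 and 0.0% of 2610. At an unadjusted p under 0.05 there were 272 sequences in Pietrain, 3 of them members', and 34 in Large White and 111 in Hampshire, 0 of them members'. In the authors' deposited table for Pietrain, 3 of 68 miR-199ab-3p, 1 of 28 miR-199b-5p, 0 of 39 miR-214-3p and 0 of 1 miR-214-5p sequences with an adjusted p had one under 0.05, against 1.89% of all sequences with a value. Both miR-199 names were at 0 in 3 of the 4 Pietrain thick-fat libraries. The Pietrain calls of miR-199 sequences therefore cannot be read apart from those zeros. The authors' deposited tables for Large White and Hampshire held 0 such member sequences, against 0.0% and 0.0187%.

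Across libraries with reads, the strands of miR-199 varied together in part. Pearson's r of log2 CPM was 0.654 over 15 libraries (permutation p = 0.00813, adjusted over 6 relations 0.0488) and Spearman's rho 0.511 (permutation p = 0.0546, adjusted 0.164). Without the 2 libraries farthest from the median of miR-199ab-3p, r was 0.368. Leaving out extreme values narrows the range and can lower r by itself. Whether the relation rests on those libraries was therefore not tested. Within Hampshire r was 0.873 and rho 0.714 over 6 libraries (exact permutation p = 0.0222 and 0.136, adjusted 0.0666 and 0.243), and r 0.642 without 2. Pietrain and Large White had 4 and 5 libraries with miR-199, and no coefficient is given for fewer than 6.

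The strands of miR-214 gave r 0.504 and rho 0.521 over 15 libraries (permutation p = 0.0540 and 0.0472, adjusted 0.0810 and 0.164), and r 0.436 without 2. Within Pietrain r was 0.785 and rho 0.607 over 7 libraries (exact permutation p = 0.0494 and 0.167, adjusted 0.0810 and 0.243), and r was 0.05 without 2. Within Large White r was 0.101 and rho 0.476 over 8 libraries (exact permutation p = 0.819 and 0.243), and r was 0.643 without 2. miR-199ab-3p and miR-214-3p shared 9 libraries with reads, with r 0.516 and rho 0.467 (permutation p = 0.152 and 0.212), and r 0.071 without 2. All of these rest on the same libraries and scaling.

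By level, the names most like miR-199ab-3p over libraries with reads of both were miR-218-5p (Spearman's rho 0.786), miR-140-5p (0.761), miR-497 (0.757), miR-101 (0.675) and miR-224 (0.657), each over 15 libraries and out of 150 names ranked. Those most like miR-214-3p were miR-23a (0.689 over 15 libraries), miR-127-5p (0.599 over 13), miR-23b (0.596 over 15), miR-9841-3p (0.578 over 14) and miR-186 (0.546 over 15), out of 158 names. These are the highest of many coefficients, over libraries that share their scaling, and are given as a description. The sets shared 0 names.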

How the data were processed

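Small RNA of subcutaneous fat from 22 female pigs was sequenced, 1 library per pig, and groups were taken from the labels. Per the labels' protocols, RNA with an integrity number above 7.5 was used and libraries were size-selected on a gel. The authors deposited raw read counts per sequence, in 1 table per breed, with no normalization. Each breed also has a deposited DESeq2 table that compares fat classes. Per the file headers it holds a mean signal, a log2 fold change with its error, a test score and p-values, and its sign, found from the values, is thin minus thick. Among tools, the submitters' processing notes list bcl2fastq, FastQC and DESeq2, with the assembly Sscrofa10.2. Trimmer, aligner and miRNA release are not given in the sources used here.

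The tables of the breeds were joined by sequence, and a sequence absent from the table of a breed was given a count of 0 there. Counts of all sequences of 1 name were summed. The 80 sequences with no name held 0.048% of reads and stayed out. Totals of 431542 to 3137757 reads per library limit the precision of low names. PCR copies could not be removed, because the reads carry no molecular identifiers. edgeR 4.0.16 (quasi-likelihood, robust, TMM, filter by expression in groups of breed and fat class) and limma 3.58.1 ran in R 4.3.3 over all names, and adjusted p-values (Benjamini-Hochberg) under 0.05 were called. The limma fit left out zeros and used log2 CPM with a pseudocount of 0.5. Exact two-sided permutation tests over libraries (the smaller tail times 2) compared 5p to 3p ratios, lengths, starts and shares of the most abundant sequence, the last 3 in libraries with at least 200 reads of a name. The scripts were tested on simulated data. Alternatives were other scalings and filters, DESeq2 1.42.0, limma-voom, and leaving out each library in turn.

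The members, the marker lists and the tests were chosen with earlier results of these data known. The lists were mesenchymal and fibroblast-rich, fibrosis-linked, endothelium, leukocyte, red blood cell, skeletal muscle, epithelium, liver, nerve and adipocyte, some of which share names, and they were described by counts and medians. The start positions, the hairpins with both strands, the thick-fat comparison, the single family of tests, and the exchange of 2 Large White libraries in all but the edgeR fits were chosen after seeing the data. Names alike by level were, by rule, the 5 of highest Spearman's rho over at least 10 shared libraries. Names alike by zeros were the 5 of highest Jaccard index among names with at least 3 libraries at 0 and a median of at least 100 CPM in libraries with reads. At most 4 examples a list were named.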

Additional observations from a re-analysis of the deposited data

Results flagged for a closer look

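In Pietrain thick fat, replicate 3 stood apart from the other 3 libraries of its group, which were listed at 0, with 18100 CPM of miR-199ab-3p and 3770 CPM of miR-199b-5p. Its total was the lowest of the Pietrain libraries, at 759210 reads. In Hampshire thick fat, replicate 2 had 53.0% of its miR-199ab-3p reads in the most abundant sequence, against 49.1% to 49.4% in the other 3 libraries with reads of that group. It had 5759 reads of the name, the fewest of any library with reads. By chance about 1 in 20 groups of normally spread values holds a library that stands as far apart, and 34 groups of 4 to 10 libraries were examined. That rate does not hold for the Pietrain flags, where the other 3 libraries were tied at 0 for both strands of miR-199.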

How the results depend on the processing

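The count of members called did not change under any scaling, filter or tool run for the fat and breed comparisons. The cause of the changes below was not tested. Against TMM, library totals and upper-quartile scaling put the median of all names at -0.29 and -0.21 (Hampshire minus Large White), at -0.24 and -0.29 (Hampshire minus Pietrain), and at 0.19 and -0.21 in Hampshire thick minus thin. DESeq2 called 57 names against 36 by edgeR (Hampshire minus Large White) and 7 against 0 (Pietrain minus Large White), and 1 in Pietrain, 3 in Hampshire, 2 over all breeds and 2 in the interaction, against 0 each. Without Hampshire thin fat replicate 2, edgeR called 22 names against each other breed. With counts under 20 as missing, the limma fit called 0 names between Pietrain and Large White, against 1.

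Uncalled log2 fold changes near 0 turned sign. Thick minus thin in Pietrain, miR-214-3p was 0.042 with upper-quartile scaling, 0.042 with library totals and 0.053 with limma-voom, and miR-214-5p was 0.013, 0.042 and 0.057. In Large White miR-214-5p was -0.021 with upper-quartile scaling, -0.073 with library totals, -0.006 with the filter of 10 CPM, -0.153 with limma-voom and -0.385 with 2 libraries exchanged. That exchange gave -0.134 for miR-214-5p in libraries with reads and -0.049 for the miR-214 strand ratio in Large White. With 50 reads of each strand required, that ratio was 0.034 for Pietrain minus Large White.

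The 5p to 3p ratio of miR-199 kept its direction. Hampshire minus Large White was -0.950 in thick fat only and -0.824 in 1 family of tests, Hampshire minus Pietrain was -0.753 in 1 family, and these were not called, which left 0 calls of 2. The first could not be called with 4 and 3 libraries, where the smallest exact p is 0.0571, and Hampshire minus Pietrain had no thick-fat value, with 1 Pietrain library. Leaving out 1 library, the differences ran from -0.917 to -0.701 and from -0.846 to -0.630, with adjusted exact p of 0.0333 to 0.0635 and 0.0333 to 0.0952, and 0 to 2 calls.

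Leaving out 1 library, 0 to 2 members were called in Pietrain thick minus thin and 2 to 3 in Hampshire minus Pietrain. Thick minus thin, miR-214-3p ran from -0.200 to 0.417 in Pietrain and from -0.240 to 0.040 in Large White, and miR-214-5p from -0.389 to 0.551 and from -0.123 to 0.258. In libraries with reads, thick minus thin ran from -0.308 to 0.149 (miR-199ab-3p), -0.190 to 0.133 (miR-199b-5p), -0.112 to 0.086 (miR-214-3p) and -0.113 to 0.250 (miR-214-5p). There miR-199b-5p ran from -0.283 to 0.146 for Hampshire minus Pietrain, and miR-214-3p from -0.150 to 0.048 for Pietrain minus Large White. The miR-199 ratio ran from -0.193 to 0.168 in Hampshire thick minus thin and from -0.123 to 0.021 for Pietrain minus Large White. The miR-214 ratio ran from -0.229 to 0.259 in Pietrain and from -0.062 to 0.381 in Large White.

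No paired analysis was possible because the replicate numbers only name the libraries and no label pairs pigs of different groups. Depth limits miR-214-5p, with 36 to 173 reads per library. With zeros included, the intervals of miR-199 were too wide to show a fat difference in its level.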
